A study of Mus musculus with 9 samples.

Results

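The circadian clock genes described here are *Per1*, *Per2*, *Cry1*, *Cry2*, *Clock*, *Nr1d1*, *Nr1d2*, *Dbp*, *Nfil3*, and *Bhlhe40*, a set of 10 genes chosen by name from the 50559 genes listed in the count files. All 10 passed the filter on low counts that left 16618 genes for testing. The libraries came from *mdx* mice, a dystrophin-deficient model of Duchenne muscular dystrophy, that drank vehicle (MediDrop with sucralose), the mineralocorticoid receptor antagonist spironolactone in that vehicle, or the glucocorticoid receptor agonist prednisolone in that vehicle for 7 days until the age of 4.5 weeks. CD45+CD11b+ cells, which are leukocytes of the myeloid lineage such as macrophages, monocytes, and neutrophils, were sorted from the quadriceps, with 3 libraries per group and cells of 3 mice pooled in each library. All 3 groups carried the *mdx* mutation, so that every comparison is within dystrophic muscle. Each group held mice of both sexes, live and dead cells were not told apart in the sort, and the time of day of collection is not given in the sources used here.

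The molecular clock is a feedback loop of transcription. The activators CLOCK and BMAL1 bind E-box elements and switch on the *Per* and *Cry* genes, whose proteins return to the nucleus and repress CLOCK and BMAL1. A further loop runs through the REV-ERB receptors, encoded by *Nr1d1* and *Nr1d2*, which repress *Bmal1*, *Cry1*, and *Nfil3* through ROR elements, and the output factors DBP and NFIL3 compete for D-box elements, with DBP as activator and NFIL3 as repressor. In macrophages the REV-ERB receptors also restrain inflammatory genes, and in many tissues glucocorticoids set the phase of the clock, with *Per1* as a known direct target of the glucocorticoid receptor.

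With prednisolone, 3 of the 10 clock genes fell against vehicle and none rose, where 0.758% of all genes tested fell and 1.76% were called in either direction. These were *Per1*, which fell 2.33-fold, *Nr1d1*, which fell 2.21-fold, and *Nr1d2*, which fell 1.74-fold. With spironolactone none of the 10 passed the test against vehicle (0.0181% of all genes did), and the fitted level of *Per1* was 1.65-fold lower, that of *Nfil3* 1.59-fold lower, and that of *Bhlhe40* 1.39-fold lower, each with no overlap between the groups, as for 13.5% of all genes (6.5% lower). Set directly against each other, where 5.17% of all genes were called, the drugs differed in *Per2* and *Cry1*, which were lower with spironolactone than with prednisolone, and in *Nr1d2*, which was higher.

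Levels are given as CPM, the counts scaled to library size by the trimmed mean of M values (TMM). Differences are log2 fold changes ± SE from 1 edgeR fit of all 9 libraries with 3 per group, tested two-sided by quasi-likelihood, and Benjamini-Hochberg adjustment over the 16618 genes; a gene was called where the adjusted *P* was under 0.05. The libraries held 31469815 to 32943512 counts on genes, and the clock genes had between 47 counts (*Dbp* in a prednisolone library) and 8660 counts (*Bhlhe40* in a vehicle library). Summed CPM of 8 myeloid identity genes (*Ptprc*, *Itgam*, *Csf1r*, and others) lay between 16400 and 19700 in all 9 libraries, with *Lyz2* at 8200 to 12200 CPM as the largest share. None of the 8 was called against vehicle. Between the drugs *Itgam*, which encodes the CD11b of the sort, was lower with spironolactone (984, 1170, and 978 CPM against 1450, 1280, and 1490 CPM, -0.43 ± 0.11 on the log2 scale, adjusted *P* = 0.0353, edgeR), and the groups did not overlap for 5 of the 8 (30.3% of all genes tested). Neutrophil genes stood apart in vehicle library 3 and spironolactone library 3, with a summed CPM of 4010 and 3010 for the 8 genes against 307 to 905 in the other 7 libraries. Spironolactone libraries 1 and 2, at 905 and 872 CPM, were also above the prednisolone libraries, at 310 to 434 CPM. Between the drugs the groups did not overlap for 7 of the 8 genes, all higher with spironolactone (15.1% of all genes tested). None of the 8 was called there (edgeR). Without vehicle library 3 and spironolactone library 3, *Per1* and *Nr1d2* still passed the test for prednisolone against vehicle. *Nr1d1* did not (adjusted *P* = 0.0609, edgeR), at a log2 fold change of -1.31 against -1.14 with all libraries. None of the 10 clock genes passed in the direct comparison of the drugs in that fit, where *Per2* was at -1.02, *Cry1* at -0.64, and *Nr1d2* at 0.67. With 7 libraries the calls over all genes also fell in number, from 293 to 120 for prednisolone and from 859 to 285 between the drugs. Each replicate is a pool, so that a lower value in a bulk library can come from fewer cells that carry the transcript or from less transcript per cell, and these cannot be told apart.

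Promoter sequences of 4 of the 5 genes that were called (*Per1*, *Cry1*, *Nr1d1*, and *Nr1d2*) are shown first, with the short clock elements that they hold. The table of RefSeq promoters had entries for 8 of the 10 genes, all but *Per2* and *Bhlhe40*, in 11 windows of 250 bases before and 50 bases from the transcript start; each window was found at a single place in GRCm39, which gives the coordinates. A set of 6 elements was searched on both strands, and matches are in capitals below. The E-box, spelled CACGTG, is the site that CLOCK and BMAL1 bind, and the E'-box, spelled CACGTT, is a weaker form of it that reads AACGTG when it lies on the opposite strand. The D-box, spelled TTATGNAA, is the site that DBP and NFIL3 share. The ROR element, spelled TAGGTCA, is bound by the REV-ERB and ROR receptors. The cAMP response element, spelled TGACGTCA, is bound by CREB after signals from outside the cell. The half-site of the glucocorticoid receptor was spelled AGAACA. The first of the *Per1* windows (chr11:68989525-68989824, plus strand), that of *Cry1* (chr10:85020869-85021168, minus strand), that of *Nr1d1* (chr11:98666154-98666453, minus strand), and that of *Nr1d2* (chr14:4230340-4230639, plus strand) read, 5′ to 3′:
*Per1*: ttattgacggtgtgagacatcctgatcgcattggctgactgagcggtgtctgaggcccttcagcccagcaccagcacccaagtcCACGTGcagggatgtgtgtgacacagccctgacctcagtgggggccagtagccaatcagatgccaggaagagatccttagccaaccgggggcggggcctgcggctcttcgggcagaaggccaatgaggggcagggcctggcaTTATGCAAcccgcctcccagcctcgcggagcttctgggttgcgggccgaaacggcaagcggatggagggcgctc
*Cry1*: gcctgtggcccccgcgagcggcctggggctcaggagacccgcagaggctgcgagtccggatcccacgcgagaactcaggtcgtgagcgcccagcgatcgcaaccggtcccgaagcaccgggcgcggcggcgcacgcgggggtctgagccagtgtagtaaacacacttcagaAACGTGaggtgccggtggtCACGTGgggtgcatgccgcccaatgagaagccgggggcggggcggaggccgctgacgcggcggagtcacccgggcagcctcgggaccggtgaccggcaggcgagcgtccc
*Nr1d1*: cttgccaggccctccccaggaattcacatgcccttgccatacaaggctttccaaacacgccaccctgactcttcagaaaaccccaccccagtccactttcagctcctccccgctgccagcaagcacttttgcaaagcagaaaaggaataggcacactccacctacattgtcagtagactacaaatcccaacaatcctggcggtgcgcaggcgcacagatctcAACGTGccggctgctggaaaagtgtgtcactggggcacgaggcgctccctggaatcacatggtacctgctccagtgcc
*Nr1d2*: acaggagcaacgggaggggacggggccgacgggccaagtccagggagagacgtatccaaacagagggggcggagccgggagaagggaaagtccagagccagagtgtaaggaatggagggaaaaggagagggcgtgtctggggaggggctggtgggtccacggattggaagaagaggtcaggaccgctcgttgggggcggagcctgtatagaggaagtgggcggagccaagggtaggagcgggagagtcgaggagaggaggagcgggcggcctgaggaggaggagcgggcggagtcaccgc

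The *Per1* window shown holds an E-box 166 to 161 bases before the start and a D-box 24 to 17 bases before it, and the other *Per1* window (chr11:68990728-68991027, plus strand) holds none of the 6 elements. That of *Cry1* holds an E'-box 79 to 74 bases and an E-box 60 to 55 bases before the start. The *Nr1d1* window holds an E'-box 28 to 23 bases before the start, and that of *Nr1d2* holds none of the 6 elements. The window of *Cry2*, not shown, holds an E'-box, that of *Nfil3* holds a ROR element 12 to 6 bases before the start, and those of *Clock* and *Dbp* hold none. Over all 32841 promoter windows of this length in the table, 7.15% hold an E-box, 4.69% an E'-box, 3.39% a D-box, 2.61% the ROR element, 1.79% the cAMP response element, and 19.0% the glucocorticoid receptor half-site. None of the 11 windows holds the last 2, which says only that these letters are not in these windows.

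*Per1*, a repressor of the loop that outside signals can induce rapidly, lies on chromosome 11 (68986035 to 69002300, plus strand, GRCm39). Its level was 261, 209, and 264 CPM in the vehicle libraries, 127, 151, and 167 CPM in the spironolactone libraries, and 131, 104, and 80.3 CPM in the prednisolone libraries. Every treated library was below every vehicle library, and the ranges of the drugs overlapped each other. Against vehicle *Per1* fell with prednisolone (log2 fold change -1.22 ± 0.17, adjusted *P* = 0.00436, edgeR), and 1.76% of all genes tested were called in that comparison. The value for spironolactone against vehicle was -0.72 ± 0.16 (adjusted *P* = 0.156, edgeR), and 0.0181% of all genes tested were called there. The difference between the drugs did not pass the test (0.50 ± 0.16 higher with spironolactone on the log2 scale, adjusted *P* = 0.0987, edgeR). It was called by DESeq2 on all 9 libraries and on 2 groups. In edgeR it was called without a filter on low counts and without prednisolone library 1. *Per1* is also among the genes that the study named from these same libraries, in its figure on genes called by DESeq2 with both drugs. The change of *Per1* is therefore not independent evidence. Leaving out each of the 9 libraries in turn left it called for prednisolone every time, with log2 fold changes from -1.41 to -1.06 and adjusted *P* from 0.00186 to 0.0373 (edgeR).

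*Per2*, which shares with *Per1* the role of CLOCK and BMAL1 repressor, showed another pattern. Its CPM values were 15.6, 8.08, and 9.1 with vehicle, 7.4, 8.76, and 6.05 with spironolactone, and 16, 19.7, and 13.2 with prednisolone. All prednisolone libraries were above all spironolactone libraries, while vehicle library 1 lay within the prednisolone range and apart from the other vehicle libraries. In the direct comparison *Per2* was lower with spironolactone than with prednisolone (-1.14 ± 0.25 on the log2 scale, adjusted *P* = 0.0229, edgeR), where 5.17% of all genes tested were called. Neither drug differed from vehicle past the threshold, with 0.58 ± 0.24 for prednisolone (adjusted *P* = 0.295) and -0.56 ± 0.25 for spironolactone (adjusted *P* = 0.516, edgeR). Without vehicle library 1 the difference between prednisolone and vehicle became 0.93 on the log2 scale and was called (adjusted *P* = 0.0134, edgeR). The ratio of *Per1* to *Per2* CPM was 16.7 to 29.1 in vehicle libraries, 17.2 to 27.6 in spironolactone libraries, and 5.28 to 8.15 in prednisolone libraries. The prednisolone libraries thus had the lowest ratios of the 9, a description that was given no test.

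**Figure D1:**
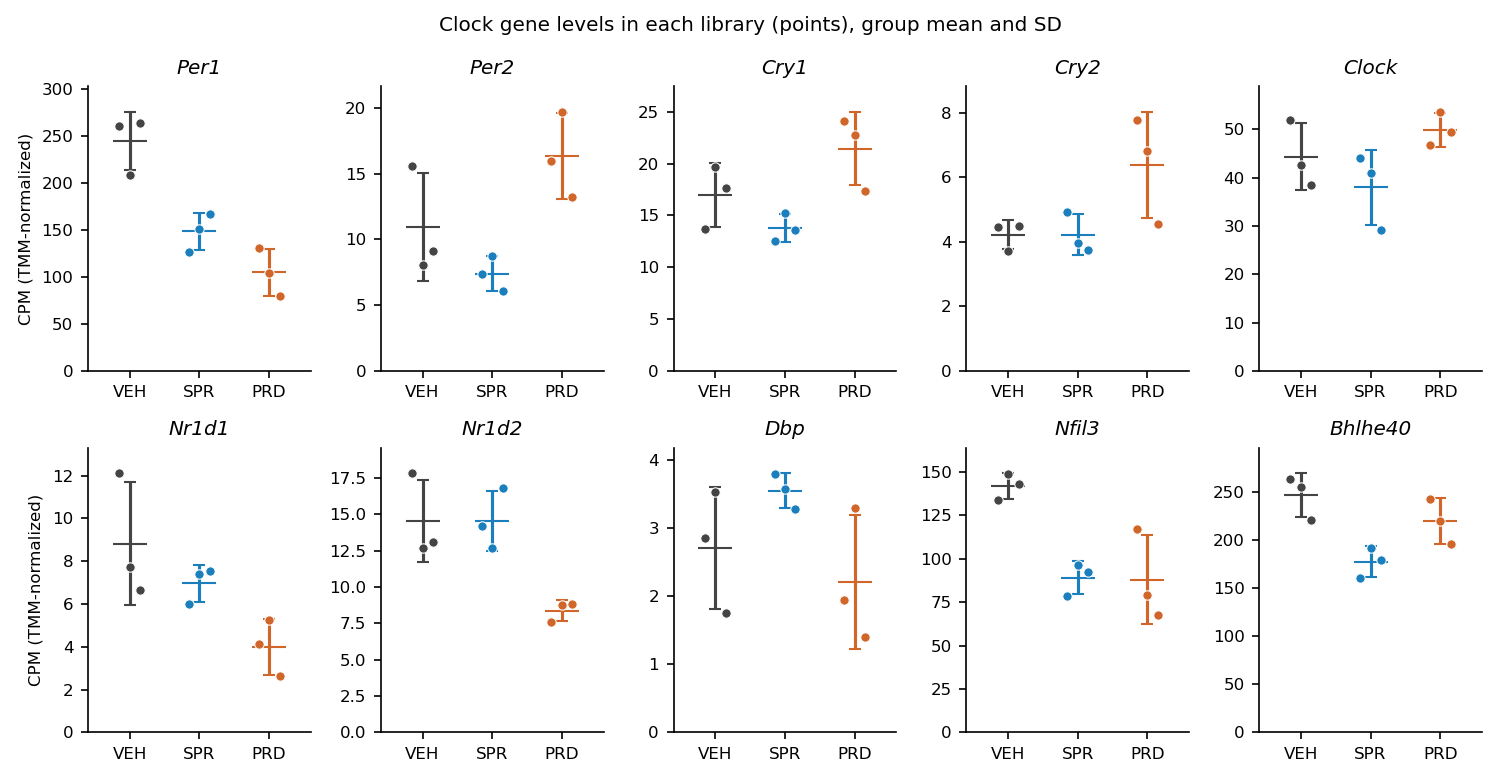
Level of each clock gene in CPM (TMM-normalized, linear axis from 0) in the vehicle (VEH), spironolactone (SPR), and prednisolone (PRD) libraries, 1 point per library, with the group mean (horizontal line) and SD (vertical bar, n = 3 pools). *Per1* is lower in all 6 treated libraries than in the vehicle libraries, *Nr1d1* and *Nr1d2* are lowest in the 3 prednisolone libraries, and *Per2* and *Cry1* are higher with prednisolone than with spironolactone.

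The cryptochromes *Cry1* and *Cry2* encode the partners of the PER proteins in repression. *Cry1* stood at 13.7, 19.7, and 17.7 CPM with vehicle, 12.5, 15.2, and 13.6 CPM with spironolactone, and 24.1, 22.8, and 17.4 CPM with prednisolone. The ranges of the drugs did not overlap, and that of vehicle overlapped both. *Cry1* was lower with spironolactone than with prednisolone (-0.64 ± 0.16 on the log2 scale, adjusted *P* = 0.0321, edgeR), and neither drug differed from vehicle past the threshold (0.34 ± 0.15 for prednisolone, adjusted *P* = 0.345, and -0.30 ± 0.16 for spironolactone, adjusted *P* = 0.584, edgeR). *Cry2* was the cryptochrome with the lower level, at 4.47, 3.71, and 4.49 CPM with vehicle, 4.94, 3.98, and 3.74 CPM with spironolactone, and 7.78, 6.82, and 4.57 CPM with prednisolone. All 3 prednisolone libraries were above all vehicle libraries, the lowest by a small margin, but the difference of 0.60 ± 0.22 was not called (adjusted *P* = 0.223, edgeR). For *Cry2* the estimate for spironolactone against vehicle was near 0, with an SE of 0.22 (adjusted *P* = 0.999, edgeR).

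*Clock*, the activator of the loop and the partner of BMAL1, passed the test in no comparison of the edgeR fit of all 9 libraries. It was measured at 51.9, 42.6, and 38.4 CPM with vehicle, 44, 40.9, and 29.1 CPM with spironolactone, and 46.7, 53.6, and 49.4 CPM with prednisolone. The prednisolone libraries were all above the spironolactone libraries, and both overlapped vehicle. Its largest difference in size was -0.39 ± 0.15 for spironolactone against prednisolone (adjusted *P* = 0.135, edgeR). That difference was called by DESeq2 on 2 groups and by edgeR without a filter on low counts.

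*Nr1d1* and *Nr1d2*, which encode REV-ERB alpha and REV-ERB beta, were the other clock genes that fell with prednisolone. *Nr1d2* lies on chromosome 14 (4230545 to 4266624, plus strand, GRCm39), with no exon base shared with another gene in the annotation. It had 17.8, 12.7, and 13.1 CPM with vehicle, 14.2, 12.7, and 16.8 CPM with spironolactone, and 7.56, 8.74, and 8.82 CPM with prednisolone. The 3 prednisolone libraries lay below all 6 others, and the vehicle and spironolactone libraries covered nearly the same range. *Nr1d2* fell with prednisolone against vehicle (-0.80 ± 0.16, adjusted *P* = 0.0237, edgeR) and was higher with spironolactone than with prednisolone (0.80 ± 0.16, adjusted *P* = 0.0137, edgeR). For spironolactone against vehicle the estimate for *Nr1d2* was near 0, with an SE of 0.16 (adjusted *P* = 0.999, edgeR). Leaving out prednisolone library 1, 2, or 3 ended the call against vehicle, with adjusted *P* of 0.104, 0.11, and 0.0686 (edgeR) and log2 fold changes of -0.73, -0.83, and -0.83, and leaving out any other library did not.

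*Nr1d1* was also lowest with prednisolone. Its values were 12.1, 7.74, and 6.64 CPM with vehicle, 5.98, 7.4, and 7.54 CPM with spironolactone, and 4.13, 5.23, and 2.64 CPM with prednisolone. All prednisolone libraries were below all others, and vehicle library 1 was the highest of the 9. Against vehicle *Nr1d1* fell with prednisolone close to the threshold (-1.14 ± 0.26, adjusted *P* = 0.0457, edgeR); of the fits that left out 1 library, the fit without vehicle library 3 alone kept this call, and the adjusted *P* of the 9 fits ran from 0.0396 to 0.154 (edgeR). The value for spironolactone against vehicle was -0.34 ± 0.26 (adjusted *P* = 0.742) and that for spironolactone against prednisolone 0.80 ± 0.26 (adjusted *P* = 0.0936, edgeR). DESeq2 on all 9 libraries and on 2 groups called the difference between the drugs. In edgeR that difference was called without a filter on low counts and without vehicle library 1. *Nr1d1* (chromosome 11, 98658752 to 98666188, minus strand, GRCm39) shares 52.8% of its 3242 exon bases with genes on the opposite strand, *Thra* (a thyroid hormone receptor gene) and *Gm31862*. Whether the counting used the strand is not given in the sources used here. Without strand, reads from the shared exon bases cannot be assigned to 1 gene, and whether such reads were counted or set aside is not given either. *Thra* had 31.3, 32, and 25.3 CPM with vehicle, 33, 37.8, and 32.7 CPM with spironolactone, and 25.2, 24.9, and 25.8 CPM with prednisolone. It was not called for prednisolone against vehicle (-0.22 ± 0.11, adjusted *P* = 0.373, edgeR) and was higher with spironolactone than with prednisolone (0.45 ± 0.11, adjusted *P* = 0.0304, edgeR), and its part in the *Nr1d1* values was not tested.

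Ratios within a library set the genes of the 2 loops side by side. The ratio of *Cry1* to *Nr1d2* CPM was 0.768 to 1.54 with vehicle, 0.809 to 1.2 with spironolactone, and 1.98 to 3.19 with prednisolone. For *Per2* to *Nr1d2* the ratios were 0.635 to 0.879, 0.36 to 0.691, and 1.5 to 2.26 in the same order of groups. On both measures the prednisolone libraries lay above the 6 others; the ratios use the same values as the tests above and are no further evidence.

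*Dbp* and *Nfil3*, the activator and the repressor at D-box elements, differed widely in level. *Dbp* was at 2.86, 3.53, and 1.75 CPM with vehicle, 3.8, 3.57, and 3.29 CPM with spironolactone, and 1.94, 3.3, and 1.4 CPM with prednisolone, with 47 to 120 counts per library. The groups overlapped with vehicle, the SE was the largest of the 10 genes in each comparison, and no comparison was called (adjusted *P* = 0.762 for prednisolone, 0.771 for spironolactone, and 0.237 between the drugs, edgeR). *Nfil3*, which is also needed for the development of several lymphoid and dendritic cells, had 134, 149, and 143 CPM with vehicle, 78.4, 96.5, and 92.6 CPM with spironolactone, and 117, 79.3, and 67.5 CPM with prednisolone. Every treated library was below every vehicle library, with a close set of vehicle values and a wide set with prednisolone. The differences of *Nfil3* were of like size, -0.69 ± 0.17 for prednisolone (adjusted *P* = 0.0639) and -0.67 ± 0.17 for spironolactone (adjusted *P* = 0.173, edgeR), and neither was called. For prednisolone this depended on the tool, since *Nfil3* was called lower by DESeq2 on all 9 libraries (adjusted *P* = 0.00283) and on 2 groups (0.00372), by limma-voom (0.0477), and by edgeR without a filter on low counts (1.85e-07). Without prednisolone library 1 the value for prednisolone was -0.95 and was called (adjusted *P* = 0.00351, edgeR). Between the drugs the *Nfil3* difference was 0.02 ± 0.17 (adjusted *P* = 0.961, edgeR).

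*Bhlhe40* encodes DEC1, a repressor that competes with CLOCK and BMAL1 at E-boxes and also regulates cytokine genes in myeloid cells and T cells. Its level was 263, 255, and 221 CPM with vehicle, 160, 192, and 179 CPM with spironolactone, and 243, 220, and 196 CPM with prednisolone. The spironolactone libraries were below all vehicle libraries and below all prednisolone libraries, and prednisolone overlapped vehicle. The log2 fold change of *Bhlhe40* was -0.48 ± 0.11 for spironolactone against vehicle (adjusted *P* = 0.129), -0.17 ± 0.11 for prednisolone against vehicle (adjusted *P* = 0.536), and -0.31 ± 0.11 for spironolactone against prednisolone (adjusted *P* = 0.107, edgeR), and none was called. DESeq2 on 2 groups called the difference between the drugs.

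Over the 10 genes, the share called with prednisolone was 3 of 10, all lower, against 1.76% of all genes tested (0.758% lower), that with spironolactone was 0 of 10 against 0.0181%, and that between the drugs was 3 of 10 against 5.17%, with 1 higher with spironolactone (2.38% of all genes) and 2 lower (2.79%). The groups did not overlap for 5 of the 10 with prednisolone against vehicle, 1 higher (*Cry2*) and 4 lower (*Per1*, *Nr1d1*, *Nr1d2*, and *Nfil3*), where 19.7% of all genes tested did not overlap, 10.4% higher and 9.27% lower. With spironolactone against vehicle the groups did not overlap for 3 of the 10, all lower (*Per1*, *Nfil3*, and *Bhlhe40*), against 13.5% of all genes, 6.99% higher and 6.5% lower. Between the drugs 6 of the 10 did not overlap, 2 higher with spironolactone (*Nr1d1* and *Nr1d2*) and 4 lower (*Per2*, *Cry1*, *Clock*, and *Bhlhe40*), against 30.3% of all genes, 15.1% higher and 15.2% lower. At an unadjusted *P* under 0.05 (edgeR), 7 of the 10 passed with prednisolone (14.2% of all genes), 4 with spironolactone (9.29%), and 8 between the drugs (22.5%). The median log2 fold change of the 10 was -0.23 for prednisolone, -0.32 for spironolactone, and -0.14 between the drugs, where that of all genes tested was -0.01, 0.00, and 0.03. The 2 comparisons against vehicle share the 3 vehicle libraries.

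**Figure D2:**
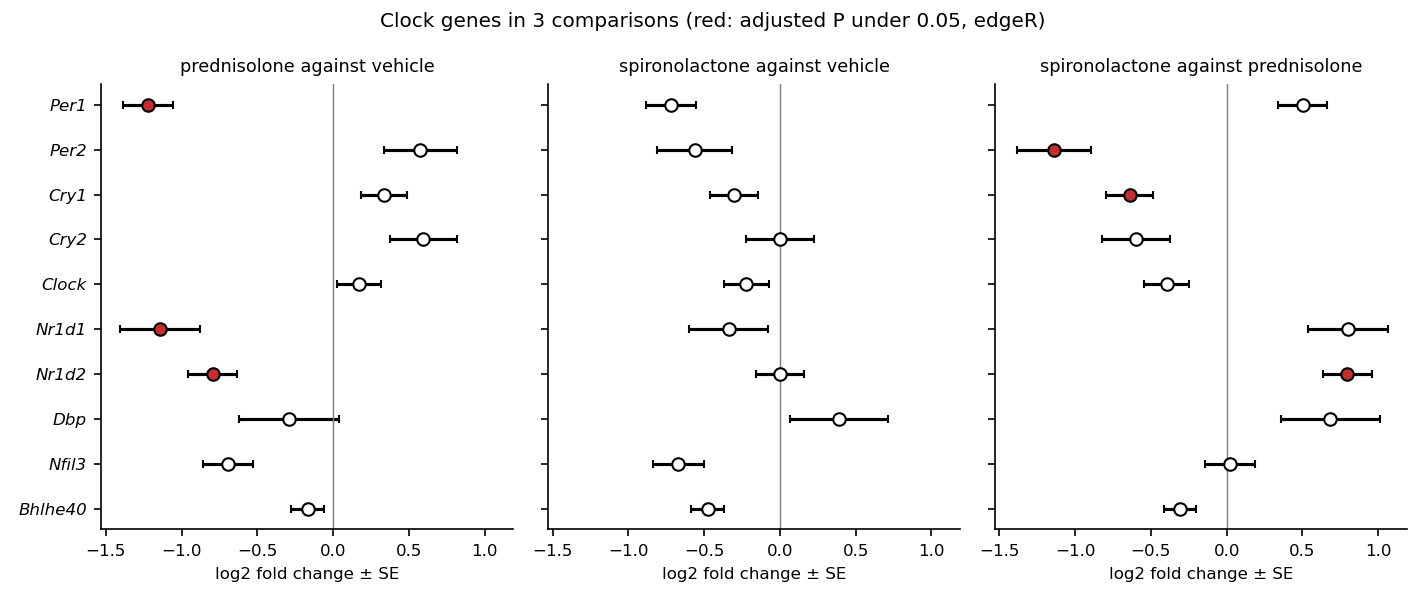
Log2 fold change ± SE (edgeR, 3 libraries per group) of the 10 clock genes for prednisolone against vehicle, spironolactone against vehicle, and spironolactone against prednisolone. Filled red points passed an adjusted *P* of 0.05. *Per1*, *Nr1d1*, and *Nr1d2* are filled on the left, none is filled in the middle, and *Per2*, *Cry1*, and *Nr1d2* are filled on the right.

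For spironolactone the count of 0 depended on the tool. DESeq2 on all 9 libraries called *Per1* (adjusted *P* = 0.00369), *Nfil3* (adjusted *P* = 0.00953), and *Bhlhe40* (adjusted *P* = 0.00543) lower than vehicle, limma-voom called none, and edgeR without a filter on low counts called those 3 and *Per2*. The log2 fold changes hardly moved, at -0.73, -0.68, and -0.48 with DESeq2 for *Per1*, *Nfil3*, and *Bhlhe40*. Over all genes, DESeq2 called 293 with spironolactone where edgeR called 3.

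Apart from that of *Per1*, the calls of the clock genes were lost in some of the fits without 1 library, in which the number of calls over all genes moved as well (69 to 826 for prednisolone against 293, and 232 to 1898 between the drugs against 859). Between the drugs, *Per2* lost its call without spironolactone library 1 (adjusted *P* = 0.0583) or 3 (0.0976) and without prednisolone library 1 (0.0723) or 2 (0.0891, edgeR). *Cry1* lost it without any spironolactone library (adjusted *P* = 0.0806, 0.0576, and 0.105 for libraries 1, 2, and 3) and without prednisolone library 1 (0.14) or 2 (0.123, edgeR). *Nr1d2* lost it there without spironolactone library 3 (adjusted *P* = 0.0706) and without prednisolone library 1 (0.0709) or 2 (0.0566, edgeR). The log2 fold changes kept their sign in all of these fits, between -1.28 and -0.98 for *Per2*, -0.77 and -0.55 for *Cry1*, and 0.68 and 0.88 for *Nr1d2*.

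**Figure D3:**
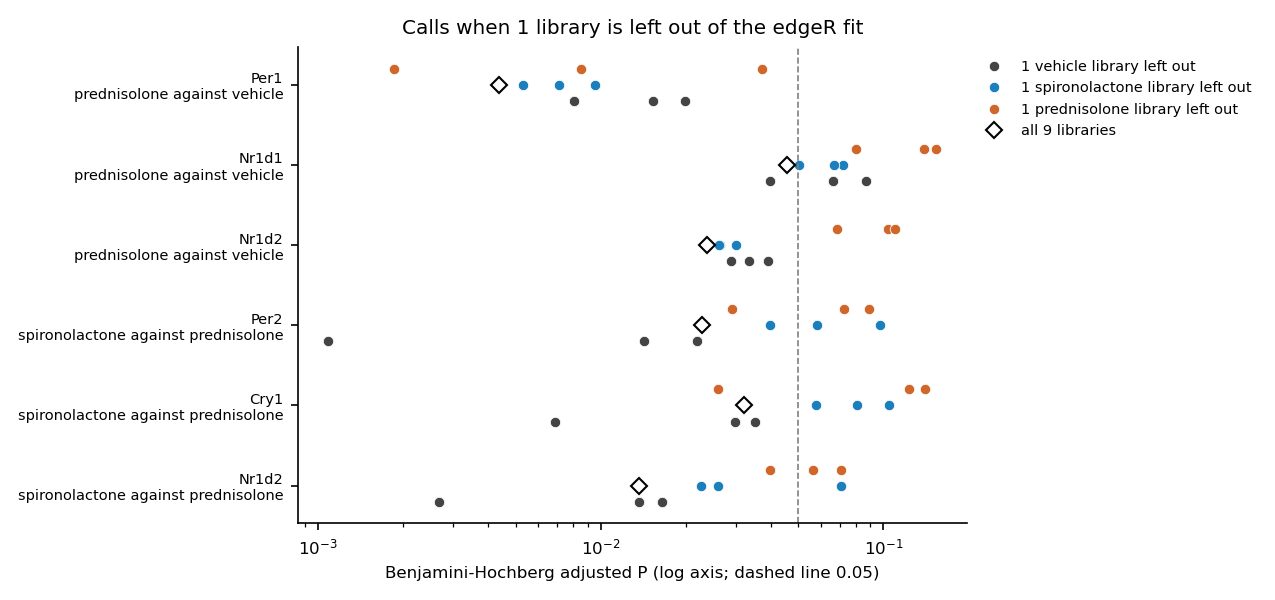
Adjusted *P* (edgeR, log axis) of the 6 calls among the clock genes with all 9 libraries (diamonds) and without each library in turn (points, coloured by the group of the library left out), with the threshold of 0.05 as a dashed line. All points for *Per1* lie left of the line, 8 of the 9 points for *Nr1d1* lie right of it, and the other rows have points on both sides.

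Levels were set in order after division by the summed exon length of each gene (GENCODE M39). In vehicle, *Bhlhe40* (38.8 ± 3.51 CPM per kb, SD, n = 3), *Per1* (31.9 ± 4.04 CPM per kb), and *Nfil3* (28.7 ± 1.52 CPM per kb) were the highest. The range of *Per1*, 27.3 to 34.5, overlapped that of *Nfil3*, 27.1 to 30.1, while *Bhlhe40* began at 34.8, above both. *Cry1* (3.42 ± 0.614), *Nr1d1* (2.72 ± 0.891), *Clock* (2.57 ± 0.4), *Per2* (1.66 ± 0.621), and *Nr1d2* (1.61 ± 0.313) followed with overlapping neighbours, and *Dbp* (0.782 ± 0.259) and *Cry2* (0.492 ± 0.0518) were the lowest and overlapped as well, all in CPM per kb of exon. With prednisolone *Per1* was at 13.7 ± 3.31 CPM per kb, below *Bhlhe40* at 34.6 ± 3.7, and overlapping *Nfil3* at 17.8 ± 5.22. *Per2*, which was below *Nr1d1* in vehicle, was above it in that group, at 2.48 ± 0.497 CPM per kb against 1.23 ± 0.401, with *Nr1d2* at 0.925 ± 0.078. The 3 leading genes were above the other 7 in every library.

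**Figure D4:**
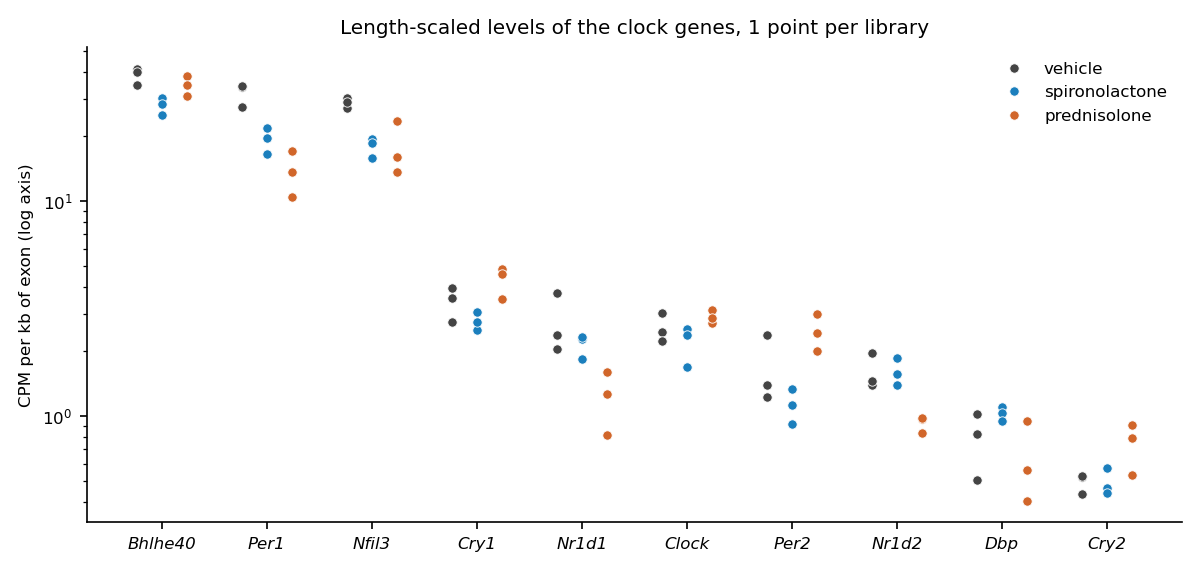
Level of each clock gene in CPM per kb of exon (log axis), 1 point per library, with the genes ordered by their vehicle mean. *Bhlhe40*, *Per1*, and *Nfil3* lie between 10.5 and 41.4 CPM per kb, and the other 7 genes lie between 0.403 and 4.84.

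Vehicle library 1 was the highest of its group for *Per2*, *Clock*, *Nr1d1*, *Nr1d2*, and *Bhlhe40* and the lowest for *Cry1* and *Nfil3*. *Bmal1* (listed as *Arntl*), the partner of *Clock*, was also highest in that library, at 18.3, 13.8, and 11.8 CPM in the vehicle libraries. Leaving out that library moved the *Nr1d1* difference between prednisolone and vehicle from -1.14 to -0.85 and that of *Nr1d2* from -0.80 to -0.62 on the log2 scale.

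A wider list of 22 other clock genes was followed in the same way, of which 20 were tested. None was called in any of the 3 comparisons by edgeR, with 4, 2, and 1 at an unadjusted *P* under 0.05 for prednisolone, spironolactone, and the direct comparison, where 14.2%, 9.29%, and 22.5% of all genes tested passed; DESeq2 called *Csnk1e* lower with prednisolone and no other, and edgeR without a filter on low counts called *Noct* lower with each drug. *Bmal1* had 14.4, 11.9, and 13.4 CPM with spironolactone and 16.3, 18.1, and 15.6 CPM with prednisolone, and its log2 fold change with prednisolone against vehicle was 0.19 ± 0.15 (adjusted *P* = 0.643, edgeR). *Npas2*, which can stand in for *Clock*, had 1.85, 1.9, and 2.52 CPM with vehicle, 2.53, 2.43, and 3.23 CPM with spironolactone, and 3.19, 5.38, and 2.55 CPM with prednisolone. The value of *Npas2* for prednisolone against vehicle was 0.82 ± 0.30 (adjusted *P* = 0.205, edgeR). *Ciart*, a repressor of CLOCK and BMAL1, had 4.07, 3.71, and 2.99 CPM with vehicle, 3.01, 2.94, and 3.13 CPM with spironolactone, and 2.28, 2.35, and 2.41 CPM with prednisolone. All prednisolone libraries were below all others for *Ciart*, and the difference from vehicle was not called (-0.61 ± 0.22, adjusted *P* = 0.199, edgeR).

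*Csnk1e*, a kinase that marks PER proteins for breakdown, came closest to the threshold, at -0.35 ± 0.09 with prednisolone (adjusted *P* = 0.0584, edgeR), with 81 to 92.9 CPM in vehicle and 65.4 to 69.7 CPM in prednisolone libraries; it was named after its values were seen. *Per3*, the third *Per* gene, ranged from 1.55 to 3.59 CPM over the 9 libraries and *Rora*, an activator at ROR elements, from 5.35 to 9.08 CPM. *Tef*, a relative of *Dbp*, ranged from 17.8 to 24.8 CPM, *Hlf*, another relative, from 0.0312 to 0.581 CPM, and *Bhlhe41*, the relative of *Bhlhe40* that encodes DEC2, from 35.4 to 47.3 CPM. For these 5 genes the adjusted *P* was at least 0.233 in every comparison (edgeR).

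**Figure D5:**
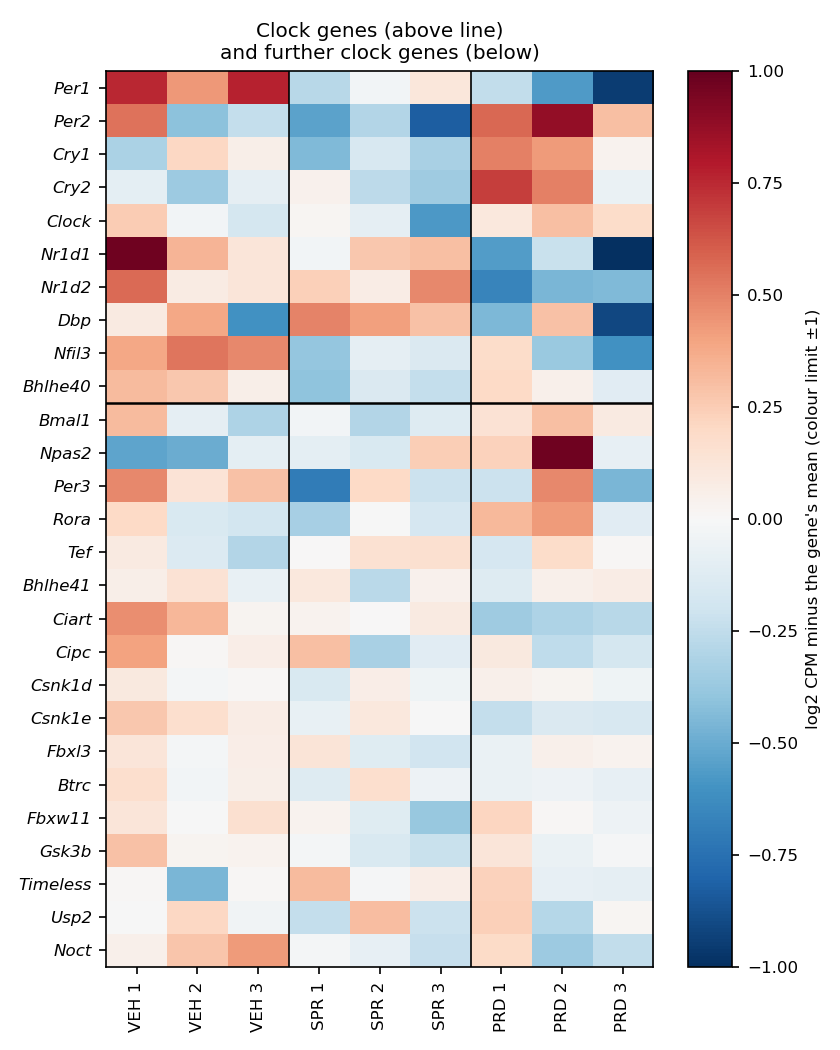
Log2 CPM of each gene minus its mean over the 9 libraries, for the 10 clock genes (above the line) and 17 other clock genes with a level high enough to draw (below), with vehicle (VEH), spironolactone (SPR), and prednisolone (PRD) libraries in columns and the colour limited to 1 in size. *Per1* is red in the 3 vehicle libraries, and *Nr1d1* and *Nr1d2* are blue in the 3 prednisolone libraries. *Per2* and *Cry1* are blue with spironolactone and red with prednisolone, except that *Cry1* in prednisolone library 3 is near 0 (0.04). Colours are paler in most rows below the line.

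Genes whose pattern over the 9 libraries was most like that of a called clock gene were found by the root-mean-square difference of log2 CPM after the mean of each gene was subtracted. Nearest to *Per1* were *Ccrl2* (0.13), *Dusp2* (0.178), and *Ifrd1* (0.179). Nearest to *Per2* were *Ppp1r12b* (0.217), *Farp2* (0.222), and *Mamld1* (0.223), and nearest to *Cry1* were *Slc35e4* (0.0885), *Agpat4* (0.107), and *Oaf* (0.113). *Nr1d2* was nearest to *Gm36587* (0.134), *F5* (0.148), and *1700113A16Rik* (0.175), and *Nr1d1* to *Snord14d* (0.183), *LOC118568702* (0.216), and *LOC118567915* (0.222). Among the clock genes themselves the nearest to *Per1* was *Nfil3* (0.27), to *Nr1d2* was *Nr1d1* (0.333), to *Nr1d1* was *Per1* (0.326), to *Cry1* was *Bhlhe40* (0.27), and to *Per2* was *Clock* (0.364).

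Other transcripts moved with these genes. A list of 12 immediate early and dissociation genes (*Fos*, *Jun*, *Atf3*, and others), which rise within minutes of tissue handling or activation, had a summed CPM of 10400 to 11100 in vehicle, 8430 to 8820 in spironolactone, and 5660 to 8200 in prednisolone libraries, the same order of groups as *Per1*. With prednisolone 6 of the 12 fell (1.76% of all genes tested were called), among them *Jun* (-1.06 ± 0.16, adjusted *P* = 0.00661) and *Atf3* (-1.07 ± 0.15, adjusted *P* = 0.00455, edgeR), and with spironolactone none was called. Between the drugs 4 of the 12 were higher with spironolactone (*Jun*, *Atf3*, *Hspa1a*, and *Hspa1b*), where 2.38% of all genes were. The part of handling or activation in the *Per1*, *Nfil3*, and *Bhlhe40* values was not tested. For 10 genes known to be induced by glucocorticoids (*Fkbp5*, *Tsc22d3*, and others) the summed CPM was 815 to 987 with vehicle, 674 to 754 with spironolactone, and 638 to 780 with prednisolone, and none of the 10 was called against vehicle with either drug (edgeR). Their directions were mixed with prednisolone, 3 above 0 and 7 below it on the log2 scale. Above 0 were *Cd163* at 0.86 ± 0.23 (adjusted *P* = 0.0992) and *Mt2* at 0.51 ± 0.26 (adjusted *P* = 0.418, edgeR), among others. Among those below were *Tsc22d3* at -0.636 ± 0.156 (adjusted *P* = 0.0675) and *Zbtb16* at -0.683 ± 0.185 (adjusted *P* = 0.0858, edgeR). The groups did not overlap for 1 higher and 4 lower, against 10.4% and 9.27% of all genes. Between the drugs 3 of the 10 were called (5.17% of all genes), *Zbtb16* higher with spironolactone and *Cd163* and *Errfi1* lower.

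Cell type markers also differed. The summed CPM of 6 monocyte genes was 4950 to 6350 with vehicle, 3500 to 4880 with spironolactone, and 6980 to 8730 with prednisolone, the same order of groups as *Per2* and *Cry1*. The sum was carried mostly by *Fn1*, which encodes the matrix protein fibronectin, at 3170 to 3900, 2080 to 3200, and 5000 to 6070 CPM. Between the drugs *Fn1* was lower with spironolactone (-1.12 ± 0.16 on the log2 scale, adjusted *P* = 0.00254, edgeR). The 6 monocyte genes did not share a direction with prednisolone, since 3 had a log2 fold change above 0 and 3 below it, among them *Ly6c2* (-0.84 ± 0.47, adjusted *P* = 0.5) and *Plac8* (-1.02 ± 0.51, adjusted *P* = 0.447, edgeR). The median was 0.18, and none of the 6 was called against vehicle with either drug (edgeR). Transcripts of other tissues were present at lower summed levels. Endothelial genes (8 genes) were at 93.2 to 132 CPM with vehicle, 174 to 241 CPM with spironolactone, and 118 to 142 CPM with prednisolone. Skeletal muscle genes (10 genes) were at 233 to 355, 436 to 731, and 351 to 538 CPM, and erythroid genes (5 genes) at 70.2 to 135, 186 to 305, and 37.1 to 79.7 CPM, in the same order of groups. Against vehicle 1 gene of these 3 lists was called, *Myh1* of skeletal muscle, higher with prednisolone (1.07 ± 0.22, adjusted *P* = 0.0239, edgeR), where 1.76% of all genes were called. Between the drugs, where 2.38% of all genes were called higher with spironolactone, 4 of the 5 erythroid and 3 of the 8 endothelial genes were higher with spironolactone, and none of the 9 skeletal muscle genes tested was called. Lymphocyte genes (8 genes) were at 5.5 to 10, 12.1 to 18.2, and 5.04 to 8.52 CPM; none was called against vehicle with either drug, and 4 of the 8 were higher with spironolactone than with prednisolone (edgeR), against the same 2.38% of all genes. Dendritic cell genes (6 genes) were at 57.8 to 66.6 CPM with vehicle, 71.1 to 123 CPM with spironolactone, and 80 to 98.3 CPM with prednisolone. This sum was above vehicle in every treated library, with *Cd209a* as its largest share at 24.8 to 65.4 CPM. Against vehicle all 6 were above 0 on the log2 scale with spironolactone, and 5 with prednisolone. *Clec9a* was below 0 with prednisolone (-0.217 ± 0.215, adjusted *P* = 0.715, edgeR). None of the 6 was called in any comparison (edgeR). Fibro-adipogenic genes (7 genes) were at 992 to 1220 CPM with vehicle, 1150 to 1540 CPM with spironolactone, and 1200 to 1240 CPM with prednisolone. None of the 7 was called in any comparison (edgeR). With spironolactone against vehicle all 7 were above 0 on the log2 scale. At an unadjusted *P* under 0.05 (edgeR) 5 of them passed there, against 9.29% of all genes. Of the defining markers, *Cd3e* of T cells was at 0.152 to 0.76 CPM and *Ly6g* of neutrophils at 0.156 to 13.6 CPM over the 9 libraries. The part of these cell types in the clock gene values was not tested.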

How the data were processed

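RNA-Seq libraries of 3 groups with 3 pools each were analysed. The deposited counts are whole numbers that were not normalized; the authors aligned reads to mm39 using HISAT2 2.2.1 and counted them by gene using HTSeq 0.11.3 (versions from the submitters' processing notes), and the strand setting and the annotation release are not given in the sources used here. Lines that name no gene, 17.2% to 21.8% of a library, were left out. Deposited tables of log2 fold changes and adjusted *P* values, made with DESeq2 1.32.0, were not used.

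Genes were filtered with filterByExpr of edgeR 4.0.16 (minimum count 10, minimum total 15), scaled by TMM, and tested in R 4.3.3 with glmQLFit (robust=TRUE) and glmQLFTest on all 9 libraries without covariates. The biological coefficient of variation was 0.17. Chi-square per degree of freedom between libraries of a group was at least 18, above sampling error. Alternatives were RLE, upper quartile, or library totals as scaling, other filters, robust=FALSE, DESeq2 1.42.0, limma-voom (limma 3.58.1), fits on 2 groups, a replicate block, an *Xist* covariate, and fits without each library. The scripts were tested on simulated data with known changes.

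The 10 clock genes and all gene lists were chosen with earlier results of these data known. All 10 are named in each comparison. Of 22 other clock genes, values are given for 8. *Csnk1e*, with values, and *Noct*, named only for its calls without a filter on low counts, were added after their values were seen. For each called clock gene the 3 genes nearest to it in log2 CPM (prior count 2) are named. Lengths and positions are from GENCODE M39 (GRCm39), and promoter sequences are from a RefSeq table. The replicates are pools of animals, and *P* values measure the spread between pools.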

Additional observations from a re-analysis of the deposited data

How the results depend on the processing

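Of the clock genes called with prednisolone, *Per1* and *Nr1d2* passed in all 13 alternatives that did not leave out a single library and *Nr1d1* in 7 of them, and between the drugs *Per2* and *Nr1d2* passed in 12 and *Cry1* in 11. The count of 3 with prednisolone became 5 without a filter on low counts, 4 with DESeq2 on all 9 libraries and on 2 groups (*Nfil3* added), and 2 with library totals, robust=FALSE, the *Xist* covariate, or edgeR on 2 groups (*Nr1d1* lost); it stayed at 3 with limma-voom, with *Nfil3* in place of *Nr1d1*. It ran from 1 (without prednisolone library 2 or 3) to 3 when 1 library was left out. The count of 0 with spironolactone became 4 without a filter, 3 with DESeq2 on all 9 libraries, and 3 with DESeq2 on 2 groups, and was 0 in every fit without 1 library. The count of 3 between the drugs became 6 without a filter (*Per1*, *Clock*, and *Nr1d1* added). It became 5 with DESeq2 on all 9 libraries (*Per1* and *Nr1d1* added) and 7 with DESeq2 on 2 groups (*Per1*, *Clock*, *Nr1d1*, and *Bhlhe40* added). It was 0 without vehicle library 3 and spironolactone library 3 together (chosen after seeing the data). When 1 library was left out, the count ran from 0 (without spironolactone library 3 or prednisolone library 2) to 4 (without vehicle library 1, *Nr1d1* added). It was 1 without spironolactone library 1 (*Nr1d2*) or prednisolone library 1 (*Per1*). The cause of these changes was not tested. Over all genes, the counts for prednisolone, spironolactone, and between the drugs became 1019, 528, and 1940 without a filter, 738, 293, and 1739 with DESeq2 on all 9 libraries, 704, 246, and 2150 with DESeq2 on 2 groups, and 120, 0, and 285 without the libraries left out together. The counts without 1 library ran from 69 to 826 for prednisolone, 0 to 34 for spironolactone, and 232 to 1898 between the drugs, against 293, 3, and 859.

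Some differences that were never called, with estimates near 0, changed sign. On the log2 scale *Cry2* for spironolactone against vehicle (-0.0017) became 0.028 with upper quartile scaling, 0.00060 without a filter, 0.0037 with at least 10 counts in every library, 0.039 with the *Xist* covariate, and 0.12 without vehicle library 3 and spironolactone library 3, and ran from -0.13 to 0.078 without 1 library. *Nr1d2* for spironolactone against vehicle (0.00067) became -0.0076 with RLE, -0.014 with library totals, -0.0076 with DESeq2 on all 9 libraries, -0.0039 with DESeq2 on 2 groups, -0.035 with the *Xist* covariate, and -0.19 without those 2 libraries, and ran from -0.12 to 0.17 without 1 library. *Nfil3* between the drugs (0.022) became -0.012 with library totals and -0.014 without those 2 libraries, and ran from -0.14 to 0.28 without 1 library. *Xist* itself ranged from 65.3 to 712 CPM, and with it as a covariate the counts were 2, 0, and 2.

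Replicate numbers were not taken to pair the libraries. Same-numbered libraries had correlations of deviations from -0.038 to 0.151 and others from -0.168 to 0.044. The highest were 0.151 (vehicle 3 with spironolactone 3) and 0.117 (vehicle 1 with spironolactone 1), both same-numbered, so that these values do not settle whether the libraries were paired. With the replicate block the counts stayed at 3 for prednisolone, 0 for spironolactone, and 3 between the drugs, for the same genes. Without division by length, 6 of the 10 genes changed rank, *Clock* from 6 to 4 and *Nr1d1* from 5 to 8. *Dbp*, with as few as 47 counts in a library, had the widest errors.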
